A study of Homo sapiens with 6 samples.

Results

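Rac exchange factors load the small GTPase Rac with GTP, and active Rac then drives the actin-rich folds at a cell's edge that are called membrane ruffles. The genes described here are 9 of the 57905 gene identifiers in the tables: the exchange factors PREX1, TIAM1, VAV2, VAV3, TRIO, DOCK1 and DOCK4, their substrate RAC1, and MTSS1, a protein that bends membranes and binds actin. They were picked by symbol with results of the same comparison already known, PREX1 being a gene called lower in it, so their differences between groups are given as descriptions and support nothing. All 9 were abundant enough to be among the 14578 genes tested.

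In this pathway, exchange factors of the Dbl type (PREX1, TIAM1, VAV2, VAV3, TRIO) and of the DOCK type (DOCK1, DOCK4) release GDP from Rac after signals from receptors, phosphoinositide 3-kinase or adhesions. GTP-bound Rac releases the WAVE complex, which switches on the Arp2/3 complex to branch actin filaments under the membrane. In glioma cells the pathway is known for its part in migration and invasion.

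The libraries came from U87, an established human glioma cell line grown in serum-containing medium. In 3 libraries, labelled siRBM47 as genotype and treatment, the cells received 100 pmol siRNA aimed at RBM47, which encodes a protein that binds RNA. The other 3 were labelled control, with the genotype given as WT and the treatment as no. One transfection protocol stands on all 6, and which siRNA, if any, the control cells received is not stated, so effects of transfection and of the siRNA cannot be told apart. By its labels, the comparison asks which transcripts differ when RBM47 is targeted. The labels do not state that replicates were separate cultures, so errors and p-values measure only how far these libraries differ, a spread that may be technical.

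Total counts were 17580000 to 17880000 in siRBM47 libraries and 15580000 to 18130000 in control libraries, rounded. No decrease of the targeted RBM47 was detected: it had 64, 48 and 40 counts in the libraries labelled siRBM47, against 24, 30 and 108 in control (log2 difference -0.11, SE 0.50, adjusted p = 0.942, edgeR quasi-likelihood test). That value rests on control replicate 3, without which the log2 difference of RBM47 came to 0.76 (adjusted p = 0.152, edgeR; SE 0.36), towards higher in the libraries labelled siRBM47. Directions below are therefore between libraries as labelled. Control replicate 3 stood apart, with Pearson correlations of log2 levels across genes of 0.941 to control replicate 1 and 0.950 to control replicate 2, while that pair reached 0.988. Correlations of control replicates 1 and 2 to siRBM47 libraries were 0.949 to 0.965. Those of control replicate 3 to siRBM47 replicates 1, 2 and 3 were 0.956, 0.959 and 0.962, above its values to either other control. Its reads also fell on longer genes: the count-weighted mean gene length was 5402 bases there, 5096 to 5254 in siRBM47 libraries, and 4783 and 4917 in control replicates 1 and 2. Differences of the 9 genes are given with and without that library, and for other named genes the calls that leaving it out brings are stated. The part of gene length in them was not tested. Of the markers of glioma cell lines, 7 of 7 were expressed, at a summed 10981 to 14514 CPM in siRBM47 and 10564 to 12004 in control, where CPM are counts scaled to the library total with TMM factors. Of 7 astrocyte, oligodendrocyte and progenitor markers 3 were abundant enough to test, and GFAP, the defining astrocyte gene, was at most at 1.49 CPM in any library.

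PREX1 and MTSS1 were lower in the libraries labelled siRBM47, and the other 7 genes were not past the threshold in either direction. The 2 calls are 22.2% of the 9 genes, where 0.137% of all tested genes were called lower (20 of 14578, edgeR, adjusted p under 0.05) and 0.0823% higher (12). DESeq2 and limma-voom also called these 2 of the 9 lower and 0 higher, where DESeq2 called 2.63% of all tested genes lower and 1.79% higher, and limma-voom 0.144% and 0.0892%. Since PREX1 was chosen for its call, nothing is read from that contrast of shares. Fewer cells of one kind and less RNA per cell cannot be told apart in such bulk RNA.

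PREX1 (ENSG00000124126, GRCh38 chromosome 20, 48624252 to 48827883, minus strand, GENCODE release 29) encodes a Rac exchange factor that is switched on by the phosphoinositide 3-kinase product PIP3 together with G protein beta-gamma subunits. It had 22.4, 20.6 and 19.2 CPM in siRBM47 replicates 1, 2 and 3, from 406, 361 and 343 counts, against 93.0, 95.2 and 63.9 CPM in control replicates 1, 2 and 3, from 1373, 1654 and 1201 counts. Every siRBM47 library lay below every control library, as for 11.0% of all tested genes (22.6% in either direction), and control replicate 3 was the lowest of the controls. The log2 difference was -2.02 (SE 0.21), a level 4.05-fold lower in siRBM47 with a 95% interval of 2.90 to 5.65. Without control replicate 3 it was 4.53-fold lower (3.57 to 5.75). PREX1 was the 9th largest decrease among the 20 genes called lower. Its call was lost when any 1 siRBM47 library was left out (log2 -2.08 to -1.96), as was that of every gene: 0 were called by edgeR in those fits, with 1445 to 1816 at an unadjusted p under 0.05.

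The start region of PREX1 is shown because this gene carried the largest difference of the 9, and that of TRIO because it was as abundant per length in control cells and differed little between the groups. Both are the 250 bases before the RefSeq start (GRCh38.p14), with matches to the GC box (GGGCGG on either strand) in capitals.
PREX1 (chr20:48828000-48828249, minus strand): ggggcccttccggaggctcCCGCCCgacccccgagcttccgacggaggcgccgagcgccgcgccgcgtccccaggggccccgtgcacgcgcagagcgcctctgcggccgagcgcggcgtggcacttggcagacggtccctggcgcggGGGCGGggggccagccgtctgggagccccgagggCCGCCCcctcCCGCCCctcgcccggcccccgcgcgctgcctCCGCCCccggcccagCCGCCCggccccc
TRIO (chr5:14143092-14143341, plus strand): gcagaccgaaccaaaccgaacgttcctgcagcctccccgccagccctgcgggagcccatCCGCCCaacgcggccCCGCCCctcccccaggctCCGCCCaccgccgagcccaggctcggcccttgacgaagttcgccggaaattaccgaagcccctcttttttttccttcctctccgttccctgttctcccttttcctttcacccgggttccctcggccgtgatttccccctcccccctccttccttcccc
The PREX1 window had a GC content of 84.8% and 6 GC boxes, and that of TRIO 66.4% and 3, while the median GC content over 34943 RefSeq start regions was 58.0% and 42.5% of them held at least 1 GC box. A match to the NF-kB motif was found at 1 place in the PREX1 window and at 0 in that of TRIO, and 9.95% of all windows held one. On either strand, neither window held the TATA box TATAAA, found in 10.8% of all windows, the CCAAT box with the letters of its name, found in 11194 of the 34943, or the E-box CACGTG, found in 6.32%. The AP-1 motif TGANTCA, which 6.59% of all windows held, and the cyclic AMP response element TGACGTCA, which 1.63% held, were likewise not among their letters. Start regions of 7 of the 9 genes were scanned, those of RAC1 and MTSS1 not being among them. Of genes not called, VAV2 and DOCK1 had windows with 1 and 2 NF-kB matches, 4 and 3 GC boxes, and GC contents of 81.2% and 78.8%. Those of TIAM1, DOCK4 and VAV3 held 0 NF-kB matches and 1, 2 and 0 GC boxes, at 75.6%, 63.6% and 37.2%. These features were thus not particular to PREX1, and no factor's binding was measured.

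**Figure D1:**
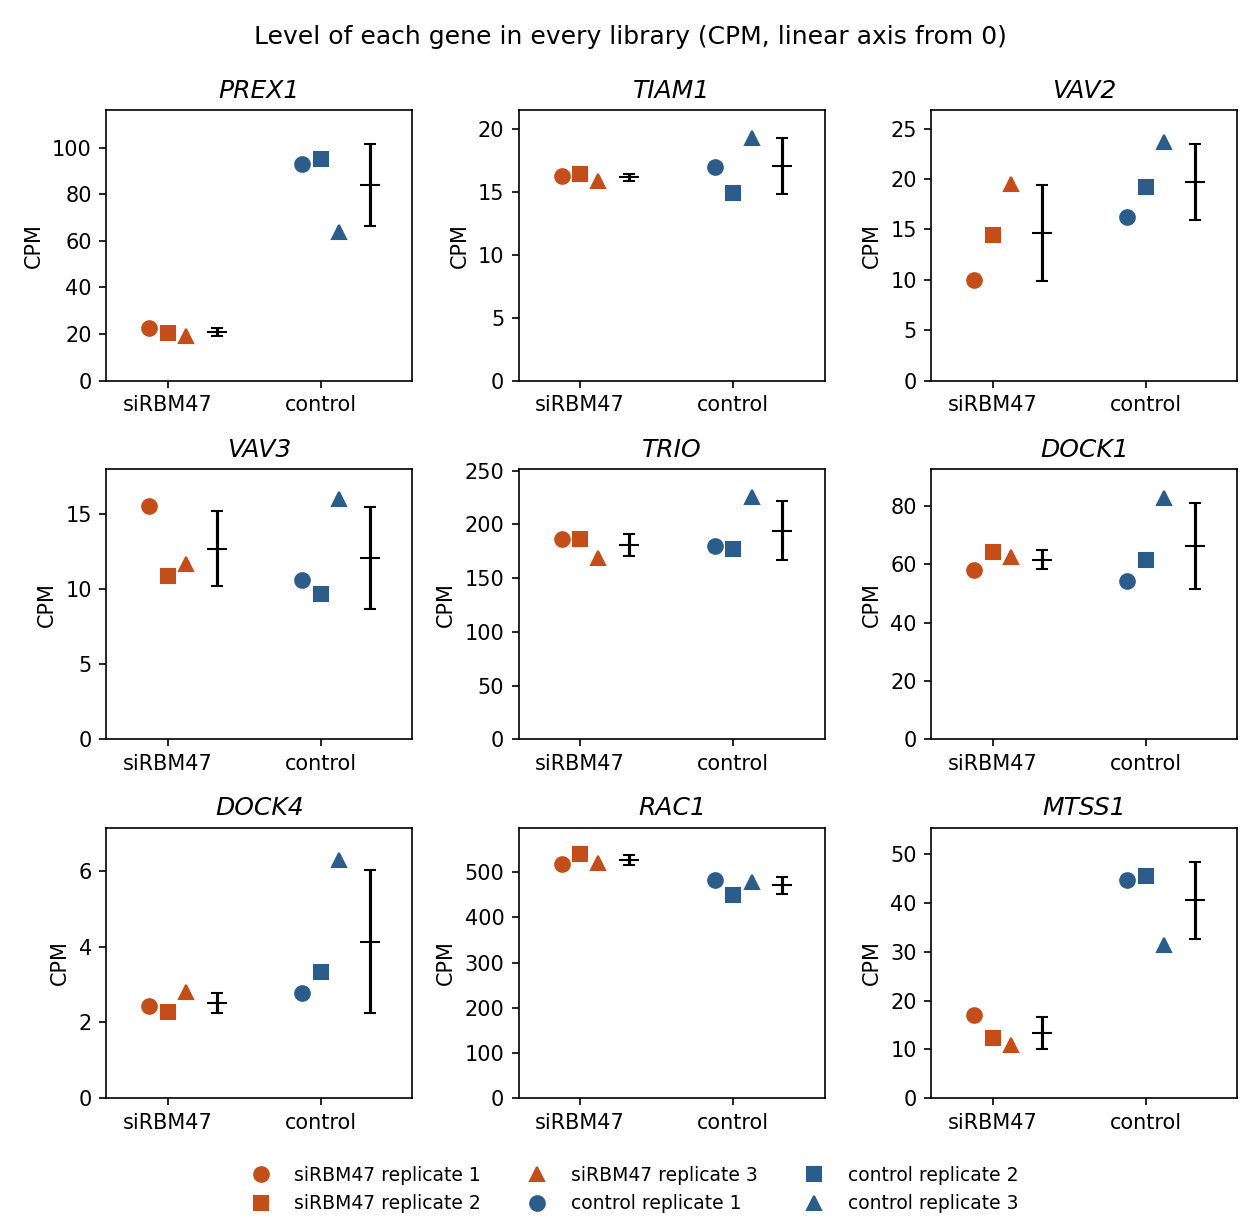
Level in CPM (linear axes from 0) of each of the 9 genes in 3 siRBM47 libraries (orange) and 3 control libraries (blue); symbols mark the replicate, and bars show the mean and SD. PREX1 and MTSS1 are separated widely between the groups, RAC1 by a small step upward, and the other 6 genes overlap.

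MTSS1 (ENSG00000170873, chromosome 8, 124550790 to 124728429, minus strand) encodes an I-BAR domain protein that curves the plasma membrane and binds actin. It was measured at 17.1, 12.2 and 10.9 CPM in siRBM47 replicates 1, 2 and 3, from 310, 214 and 195 counts, against 44.7, 45.5 and 31.4 CPM in control replicates 1, 2 and 3, from 660, 790 and 590 counts. Every siRBM47 library lay below every control library, as for 11.0% of all tested genes (22.6% in either direction). Control replicate 3 was again the lowest control. The level was 3.02-fold lower in siRBM47 (95% interval 2.06 to 4.43, log2 difference -1.59, SE 0.25), and 3.36-fold lower without control replicate 3. The adjusted p was 0.0420 (edgeR), close to the threshold of 0.05, and 0.0482 in the edgeR fit with a minimum count of 50. The call of MTSS1 was lost when any 1 siRBM47 library, control replicate 1 or control replicate 2 was left out, at log2 differences of -1.81 to -1.46. NDUFB9, a subunit of mitochondrial complex I, overlaps 8.8% of the MTSS1 exon length on the opposite strand, and the library kit does not mark strand. NDUFB9 was at 91.9, 95.4 and 97.6 CPM in siRBM47 replicates 1, 2 and 3, and at 159, 136 and 66.5 in control replicates 1, 2 and 3. Both genes were thus lower in siRBM47 than in control replicates 1 and 2, and lower in control replicate 3 than in those. Against siRBM47 they differed, as control replicate 3 lay below every siRBM47 library for NDUFB9 and above every one for MTSS1. The log2 difference of NDUFB9 was -0.34 (adjusted p = 0.592, edgeR), and without control replicate 3 it was -0.64 (adjusted p = 0.00793, edgeR). The part of reads from NDUFB9 in the MTSS1 values was not tested.

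RAC1, the GTPase on which these factors act, was by far the most abundant of the 9 per length, as given further on, and stood at 519, 539 and 521 CPM in siRBM47 replicates 1, 2 and 3 and 484, 450.3 and 478 CPM in control replicates 1, 2 and 3. Every siRBM47 library lay above every control library, by a narrow margin, and 11.6% of all tested genes were separated in that direction. The log2 difference of 0.16 (SE 0.16, 95% interval -0.20 to 0.53) was not past the threshold, and it was 0.17 without control replicate 3. Of 9 RAC1 pseudogene entries only 1, RAC1P2, had any counts, with 17 to 37 per library, so few reads were assigned to such copies. How reads matching several copies were treated is not given in the sources used here.

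TRIO is a large factor with more than a single exchange domain, of which one acts on Rac. It had 187, 186 and 169 CPM in siRBM47 replicates 1, 2 and 3, against 180.01, 177 and 226 in control replicates 1, 2 and 3. The siRBM47 values fell around those of the first pair of controls, with control replicate 3 above all others. The difference was -0.10 on the log2 scale (SE 0.18, 95% interval -0.50 to 0.30), and 0.017 without control replicate 3. TIAM1, a Rac-selective factor found at cell contacts and ruffles, varied least of the 9 within siRBM47 relative to its level, at 16.2, 16.4 and 15.9 CPM, against 17.0, 14.9 and 19.3 in control. Its groups overlapped, with a log2 difference of -0.079 (SE 0.20, 95% interval -0.53 to 0.37), and of 0.021 without control replicate 3.

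VAV2 and VAV3 are exchange factors that receptor and Src-family tyrosine kinases switch on. VAV2 spread most among the siRBM47 libraries, at 9.94, 14.5 and 19.5 CPM in replicates 1, 2 and 3, against 16.2, 19.2 and 23.7 in control. The ranges overlapped and the log2 difference was -0.43 (SE 0.28, 95% interval -1.05 to 0.19), and -0.28 without control replicate 3. VAV3 had 15.6, 10.9 and 11.7 CPM in siRBM47, against 10.6, 9.67 and 16.0 in control. Its log2 difference of 0.070 (SE 0.27, 95% interval -0.53 to 0.67) changed sign with the library left out, from -0.10 without siRBM47 replicate 1 to 0.33 without control replicate 3.

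DOCK1, which acts with an ELMO partner downstream of the adaptor CRK, was at 58.2, 64.2 and 62.5 CPM in siRBM47, against 54.4, 61.6 and 82.7 in control. The groups overlapped (log2 difference -0.10, SE 0.20, 95% interval -0.56 to 0.35, and 0.087 without control replicate 3). Antisense transcripts overlap 5.3% of its exon length. DOCK4, a related factor, was the least abundant of the 9 per length, and stood at 2.43, 2.29 and 2.79 CPM in siRBM47 and 2.78, 3.34 and 6.28 in control, from 40 to 118 counts per library. Its log2 difference of -0.73 (SE 0.37, 95% interval -1.56 to 0.11) was the largest of the genes not called, and it was -0.29 without control replicate 3.

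Among the 7 genes not called, the 95% intervals of RAC1, TIAM1, TRIO, VAV3 and DOCK1 lay within a log2 difference of -0.56 to 0.67. Those of VAV2 and DOCK4 reached down to ratios of 0.48 and 0.34, so such decreases could not be told from none with 3 libraries a group.

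**Figure D2:**
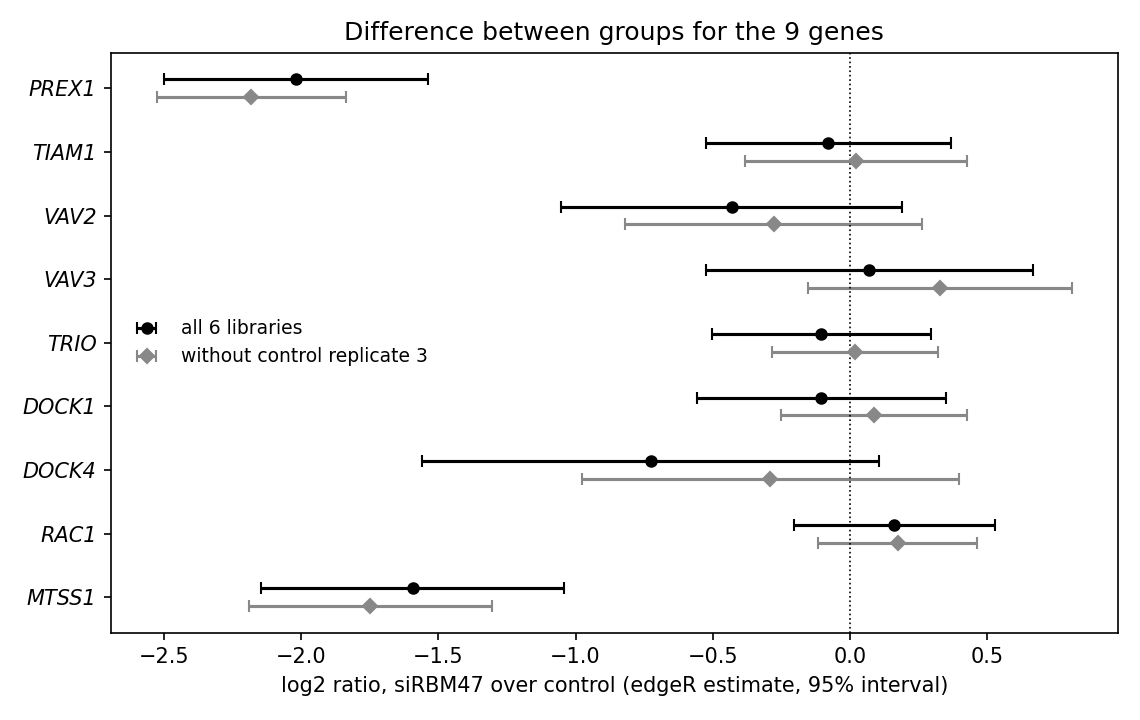
Log2 ratio of siRBM47 over control for each gene (edgeR estimate, horizontal bars are 95% intervals), with all 6 libraries (black circles) and without control replicate 3 (grey diamonds). Only the intervals of PREX1 and MTSS1 lie wholly below 0, and both stay there without control replicate 3.

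Control replicate 3 did not shift the 9 genes in one direction. Relative to the mean of control replicates 1 and 2 on the log2 scale, it was higher for DOCK4 by 1.02, VAV3 by 0.65, DOCK1 by 0.51, VAV2 by 0.42, TRIO by 0.34 and TIAM1 by 0.28, and it lay above both of them for these 6 genes. For RAC1 it lay between them. PREX1 and MTSS1 were the genes for which it lay below both, with differences of -0.56 and -0.52. Of all tested genes, 44.9% were above both other controls in that library and 43.8% below both. The median over the 9 genes was 0.34, against 0.015 over all tested genes.

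**Figure D3:**
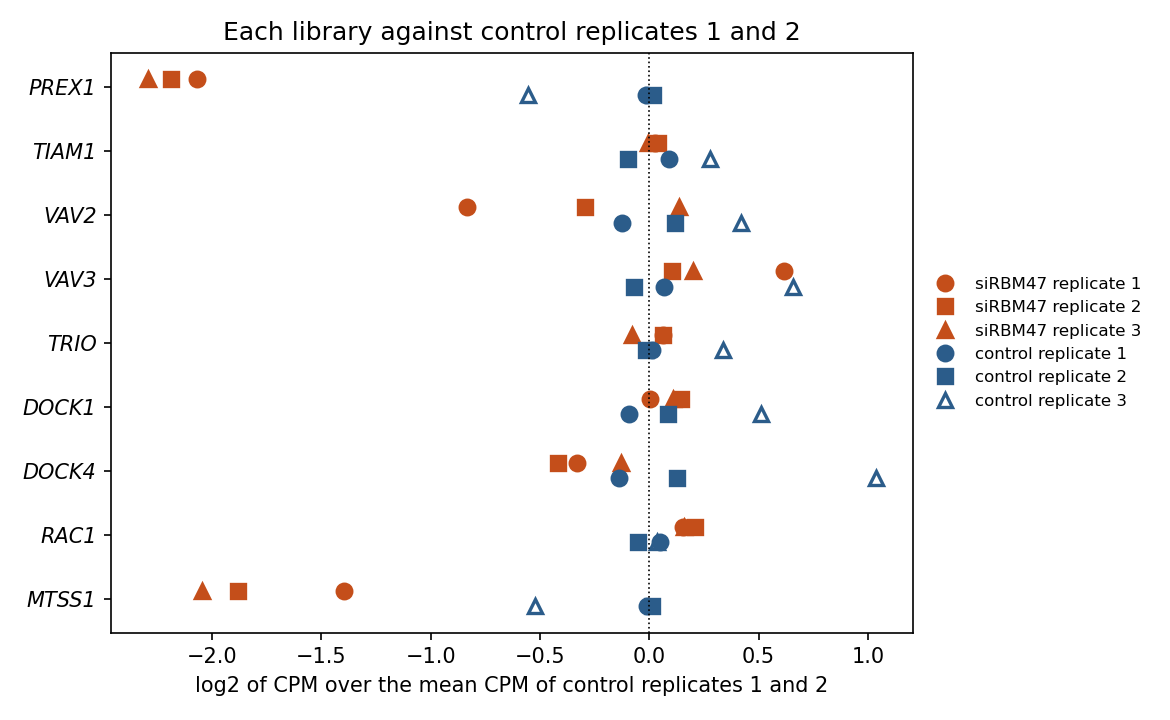
Log2 of the CPM of each library over the mean CPM of control replicates 1 and 2, for the 9 genes; orange symbols are siRBM47 libraries, blue symbols control libraries, and the open triangle is control replicate 3. In PREX1 and MTSS1 the open triangle sits between the siRBM47 libraries and the other controls, and in 6 genes it sits to the right of both other controls.

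Levels can be set against each other between genes only per length, for which the deposited FPKM, which divide by gene length and library total, were used. In siRBM47 libraries the order was RAC1 at 168 ± 2.16 FPKM, TRIO at 10.3 ± 0.553, DOCK1 at 7.58 ± 0.340, PREX1 at 2.93 ± 0.235, VAV2 at 2.56 ± 0.840, TIAM1 at 1.84 ± 0.0230, VAV3 at 1.74 ± 0.352, MTSS1 at 1.71 ± 0.425 and DOCK4 at 0.219 ± 0.0242 (SD, n = 3). Neighbours from PREX1 down to MTSS1 overlapped in that order. In control libraries it was RAC1 at 149 ± 5.49 FPKM, PREX1 at 11.8 ± 2.50, TRIO at 11.0 ± 1.48, DOCK1 at 8.10 ± 1.75, MTSS1 at 5.15 ± 1.03, VAV2 at 3.43 ± 0.634, TIAM1 at 1.93 ± 0.240, VAV3 at 1.64 ± 0.456 and DOCK4 at 0.359 ± 0.162 (SD, n = 3). There PREX1, TRIO and DOCK1 overlapped in sequence, as did MTSS1 with VAV2 and TIAM1 with VAV3. PREX1 thus ranked 4th of the 9 in siRBM47 and 2nd in control, and MTSS1 8th in siRBM47 and 5th in control.

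The make-up of the 7 exchange factors chosen here differed accordingly. These shares do not describe all Rac exchange factors of the cells. ARHGEF7, a further one, was at 6.86 ± 0.306 FPKM in siRBM47 and 5.57 ± 0.497 in control (SD, n = 3). PREX1 made up 11.8, 10.6 and 10.0% of the summed FPKM of the 7 exchange factors in siRBM47 replicates 1, 2 and 3, against 35.9, 35.6 and 22.0% in control replicates 1, 2 and 3. The shares did not overlap, and control replicate 3 was the closest to siRBM47. TRIO made up the largest share in siRBM47, at 35.4 to 39.5%, against 26.6 to 31.2% in control, and DOCK1 came next at 26.7 to 28.8% against 18.3 to 24.8%. Summed over the 7 factors, the level was 26.97, 27.23 and 27.14 FPKM in siRBM47, against 36.4, 37.6 and 40.6 in control. The sum of the 6 factors without PREX1 was 23.8, 24.3 and 24.4 FPKM in siRBM47, against 23.3, 24.2 and 31.7 in control replicates 1, 2 and 3. Outside control replicate 3 the total of the other 6 therefore covered nearly the same range in both groups. No test was made on these shares, since PREX1 was chosen for its difference.

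**Figure D4:**
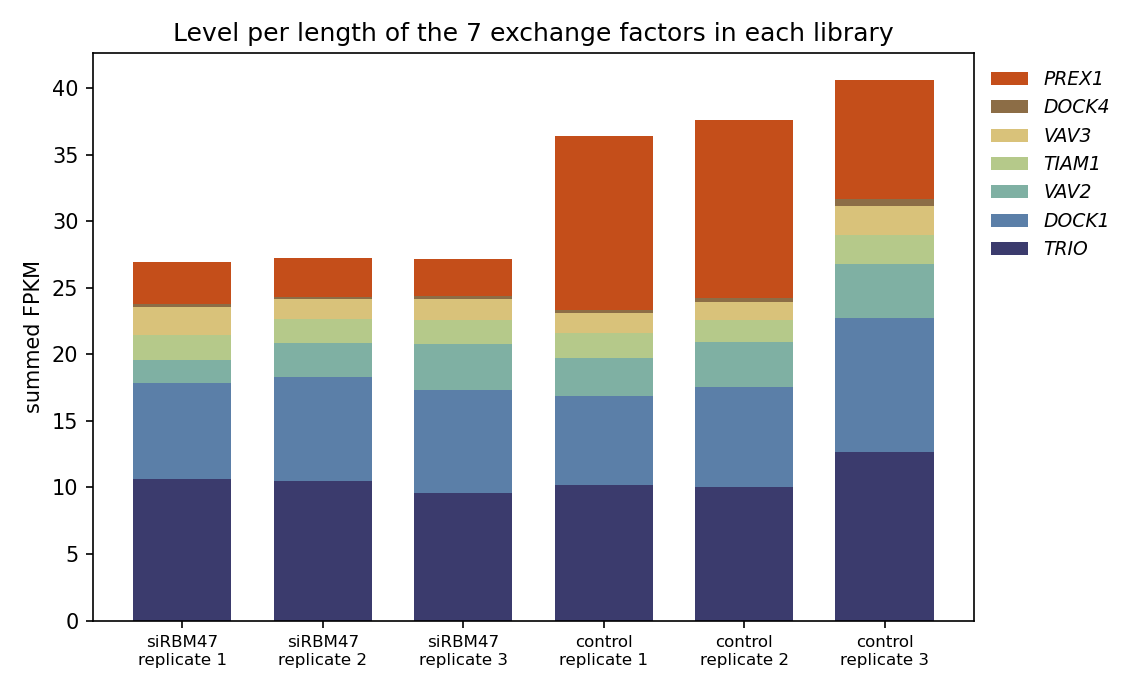
Summed FPKM (linear axis from 0) of the 7 exchange factors in each library, siRBM47 on the left and control on the right, with each factor as a coloured segment. The PREX1 segment on top shrinks to 10.0 to 11.8% of the bar in siRBM47, against 22.0 to 35.9% in control, and control replicate 3 has larger segments of the other factors.

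Around the 9 genes, 10 lists of the Rac pathway held 135 further genes, of which 133 were found in the tables and 121 were tested. By edgeR 0 of the 121 were called in either direction, where 0.220% of all tested genes were. At an unadjusted p under 0.05, 12 were lower and 8 higher, where 8.94% and 7.15% of all tested genes were. DESeq2 called 6 lower and 1 higher, against 4.42% of all tested genes in either direction, and limma-voom 0. The median log2 difference over the 121 was 0.0089, against -0.013 over all tested genes. The lists were drawn up with earlier results of these data known.

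Of 12 other Dbl-type factors tested, 3 had a negative and 9 a positive log2 difference (median 0.20). Without control replicate 3, edgeR called 1 of the 12 lower and 3 higher, where it called 11.3% and 10.1% of all tested genes. MCF2L, a Dbl-family factor, was at 24.7 ± 1.33 CPM in siRBM47 and 48.1 ± 3.14 in control (SD, n = 3; log2 difference -0.96, SE 0.17, adjusted p = 0.0709, edgeR), and DESeq2 called it lower. ARHGEF7, the factor beta-PIX of adhesions, was at 78.2 ± 3.83 CPM in siRBM47 and 63.9 ± 5.37 in control (log2 difference 0.29, adjusted p = 0.44, edgeR). PREX2, the closest relative of PREX1, had 0 counts in all 6 libraries, which allows up to 3 counts each, and VAV1, the blood cell form of VAV2 and VAV3, had 0 in the siRBM47 libraries and 0 to 5 in control.

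Of 11 other DOCK and ELMO genes tested, 6 were negative and 5 positive (median -0.043). DOCK2, a Rac exchange factor best known from leukocytes, was at 26.3 ± 5.16 CPM in siRBM47 and 12.6 ± 3.88 in control (SD, n = 3; log2 difference 1.06, SE 0.27, adjusted p = 0.117, edgeR), a direction opposite to PREX1, and DESeq2 called it higher. DOCK3, a mostly neuronal form, was at 7.68 ± 0.306 CPM in siRBM47 and 11.2 ± 2.11 in control (adjusted p = 0.292, edgeR). Among leukocyte markers, FPR1 was at 56.7, 79.8 and 88.4 CPM in siRBM47 and 20.4, 30.3 and 67.3 in control, and CSF1R at 22.8, 27.4 and 31.6 against 11.6, 13.6 and 24.9. The list of 8 leukocyte markers summed to 80.6 to 120 CPM in siRBM47 and 33.6 to 93.2 in control, and 2 of the 8 were abundant enough to test. Without control replicate 3, edgeR called these 2 higher, as it did 10.1% of all tested genes. ITGAM and AIF1 had 0 counts in every library, and PTPRC, which marks all nucleated blood cells, had 0 or 1.

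Proteins that turn Rac off, mostly GTPase-activating proteins, were negative in 11 and positive in 4 of 15 tested (median -0.14). SRGAP3, a GTPase-activating protein for Rac, was at 1.25 ± 0.161 CPM in siRBM47 and 3.79 ± 1.33 in control (SD, n = 3; log2 difference -1.60, SE 0.37, adjusted p = 0.102, edgeR), and DESeq2 called it lower.

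Downstream of Rac, 5 of 13 tested p21-activated kinase, WAVE complex and scaffold genes were negative and 8 positive (median 0.045). The kinase PAK4 was at 42.9 ± 10.0 CPM in siRBM47 and 84.4 ± 15.7 in control (SD, n = 3; log2 difference -0.97, SE 0.23, adjusted p = 0.106, edgeR). CYFIP2, a WAVE complex subunit, was at 16.5 ± 2.40 CPM in siRBM47 and 27.8 ± 2.11 in control (log2 difference -0.75, adjusted p = 0.126, edgeR), and DESeq2 called both lower. Of 20 Arp2/3 and actin regulator genes, 5 were negative and 15 positive (median 0.12). ACTR3, an Arp2/3 subunit, was at 548 ± 98.3 CPM in siRBM47 and 363 ± 41.0 in control (log2 difference 0.59, adjusted p = 0.192, edgeR). LIMK1, a kinase that inactivates cofilin, was at 150.3 ± 27.9 CPM in siRBM47 and 240.1 ± 59.1 in control (log2 difference -0.68, adjusted p = 0.212, edgeR).

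Among the relatives of MTSS1, all 3 tested I-BAR genes of a list of 4 had a negative log2 difference (median -0.61), as had 7469 of all 14578 tested genes. Of the 3, 0 were past the threshold, while without control replicate 3 BAIAP2 was called lower. BAIAP2, known as IRSp53 and a link between Rac and the WAVE complex, was at 35.6 ± 10.5 CPM in siRBM47 and 52.3 ± 11.97 in control (SD, n = 3; log2 difference -0.55, SE 0.27, adjusted p = 0.354, edgeR). BAIAP2L1 was near the detection limit, at 0.469 ± 0.138 CPM in siRBM47 and 1.08 ± 0.278 in control (adjusted p = 0.257, edgeR), and BRI3 shares 16.6% of its exon length on the other strand. For MTSS2, a further relative of MTSS1, 64.0% of the exon length is overlapped on the other strand.

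Upstream of PREX1, 14 tested genes of phosphoinositide 3-kinase, its phosphatases and G protein beta-gamma subunits were negative in 6 and positive in 8 (median 0.039). Without control replicate 3 the median was 0.41, with 4 negative and 10 positive, of which 1 was called lower and 4 higher by edgeR. The catalytic subunit PIK3CD was at 56.6 ± 3.34 CPM in siRBM47 and 76.9 ± 5.36 in control (SD, n = 3; log2 difference -0.44, adjusted p = 0.252, edgeR). The regulatory subunit PIK3R3 was at 23.3 ± 4.001 CPM in siRBM47 and 14.7 ± 4.90 in control (log2 difference 0.67, adjusted p = 0.268, edgeR). Of 10 adaptors, 7 were negative and 3 positive (median -0.26). GIT1, the partner of beta-PIX, was at 77.6 ± 12.4 CPM in siRBM47 and 128 ± 23.3 in control (log2 difference -0.72, adjusted p = 0.154, edgeR). CRK, the adaptor upstream of DOCK1, was at 87.8 ± 11.9 CPM in siRBM47 and 58.9 ± 7.94 in control (log2 difference 0.58, adjusted p = 0.198, edgeR).

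**Figure D5:**
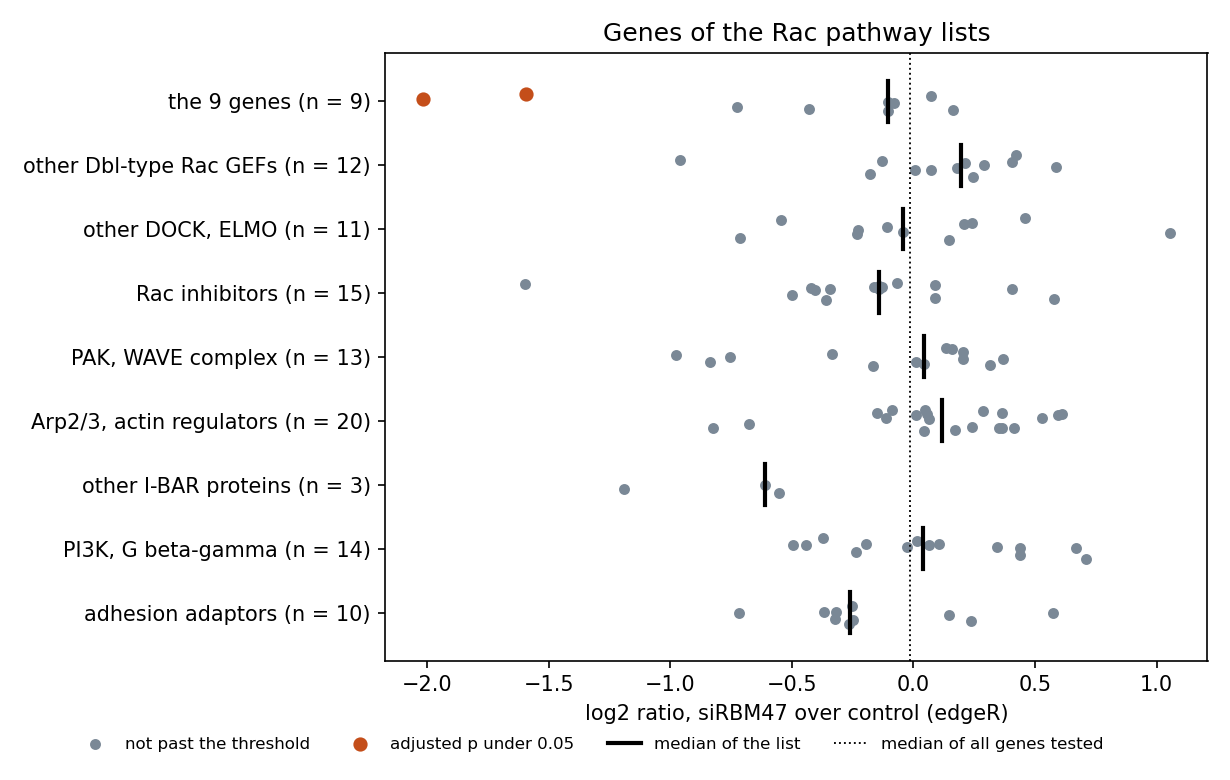
Log2 ratio of siRBM47 over control (edgeR) for the tested genes of the 9-gene set and of 8 pathway lists; black bars are list medians and the dotted line is the median of all tested genes (-0.013). The 2 orange points are PREX1 and MTSS1, and no other point is past the threshold of 0.05.

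Without control replicate 3, 14 of the 121 pathway genes were called lower (11.6%) and 21 higher (17.4%) by edgeR, where 11.3% and 10.1% of all tested genes were called. Of the genes named from the lists above, those called lower were SRGAP3 at a log2 difference of -1.28 (adjusted p = 0.0221), PAK4 at -1.12 (adjusted p = 0.00148), MCF2L at -1.01 (adjusted p = 0.00100), LIMK1 at -0.87 (adjusted p = 0.00252), GIT1 at -0.86 (adjusted p = 0.0027), BAIAP2 at -0.73 (adjusted p = 0.0303), CYFIP2 at -0.71 (adjusted p = 0.0191) and PIK3CD at -0.49 (adjusted p = 0.0337), all by edgeR. Those called higher were DOCK2 at 1.31 (adjusted p = 0.00169), PIK3R3 at 0.97 (adjusted p = 0.00595), CRK at 0.69 (adjusted p = 0.0104) and ACTR3 at 0.69 (adjusted p = 0.00954), also by edgeR. ENAH, an actin regulator of lamellipodia and filopodia chosen here after its values were seen, was called higher at 1.15 (adjusted p = 0.00123, edgeR). Among list medians, that of the DOCK and ELMO genes turned to 0.11 without control replicate 3, that of the proteins that turn Rac off was -0.045, that of the Arp2/3 list 0.075 and that of the adaptors -0.16. That fit rests on control replicates 1 and 2, the most alike pair of a group.

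Across the 6 libraries, the genes whose log2 CPM followed PREX1 most closely among the 9699 genes averaging a log2 CPM of 3 or more were ANKRD29, DDIT3, MCF2L, SQOR and IL24, with Pearson r of 0.995, 0.994, 0.994, 0.994 and 0.991. DDIT3, a stress-response transcription factor, was at 33.3 ± 2.22 CPM in siRBM47 and 116 ± 22.3 in control, and IL24, a cytokine, at 13.0 ± 2.37 in siRBM47 and 50.9 ± 15.2 in control (SD, n = 3). SQOR, a mitochondrial enzyme of sulfide oxidation, was at 19.1 ± 1.18 CPM in siRBM47 and 33.5 ± 4.33 in control, and ANKRD29 at 9.54 ± 0.938 in siRBM47 and 19.8 ± 1.84 in control. With all 6 libraries, edgeR called DDIT3 (log2 difference -1.80, adjusted p = 0.00955) and IL24 (log2 difference -1.96, adjusted p = 0.0272) lower, but not SQOR or ANKRD29. Leaving out control replicate 3 brought edgeR calls of lower for SQOR (log2 difference -0.92, adjusted p = 0.00255) and ANKRD29 (log2 difference -1.12, adjusted p = 0.00152). MTSS1 had an r of 0.985 with PREX1 over the same libraries. These coefficients describe 6 libraries in 2 separated groups and carry no test.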

How the data were processed

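RNA-seq counts were taken for 6 libraries of U87 cells, with groups and replicate numbers from the sample titles. Per the submitters' processing notes, HISAT2 2.0.5 and featureCounts 1.5.0-p3 were used with hg38; the sources used here give no annotation, strand setting or read filters. Per the file headers, the deposited tables hold raw counts and FPKM per gene; the authors' FPKM served only for levels per length. Symbols were looked up by Ensembl identifier, and 5909 of 57905 had none. Positions are from GENCODE release 29.

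Genes passing filterByExpr (minimum count 10) were tested on the whole table with edgeR 4.0.16 in R 4.3.3 (quasi-likelihood, TMM factors, no block, Benjamini-Hochberg adjustment, threshold 0.05). The SE is the absolute log2 difference over the square root of F. Alternatives were RLE and upper quartile factors, DESeq2 1.42.0, limma-voom (3.58.1), a fit without a filter or with a minimum of 50, a block for the replicate number, and fits leaving out 1 library, which used the same genes. The edgeR step was tested on simulated data. Replicates differed by more than sampling noise (chi-square per degree of freedom 10.7 to 145). Intervals for a count of 0 cover counting error only. Genes named from lists were those past the threshold, up to 3, or else the 2 with the smallest p; the 5 genes most like PREX1 were added. Members and lists were chosen with earlier results of these data known. Values of 2 of the 10 lists, and of some genes of the others, are not reported here.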

Additional observations from a re-analysis of the deposited data

How the results depend on the processing

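PREX1 and MTSS1 were lower under all 16 settings, at log2 differences of -2.18 to -1.91 and -1.81 to -1.46, and were called in 13 and 11 of them. The calls were lost only with a library left out: PREX1 ranged from -2.18 to -1.91 over those fits and MTSS1 from -1.81 to -1.46. Sign changes among uncalled genes came only with libraries left out: TIAM1 ranged from -0.16 to 0.021, VAV3 from -0.10 to 0.33, DOCK1 from -0.22 to 0.087 and TRIO from -0.16 to 0.017. Without control replicate 3, DESeq2 and limma-voom gave 0.022 and 0.025 for TIAM1, 0.088 and 0.086 for DOCK1, and 0.018 and 0.016 for TRIO; these fits were chosen after seeing the data.

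Genes called lower and higher numbered 20 and 12 by edgeR, 383 and 261 by DESeq2, 478 and 326 with no filter, and 19 were called higher with a minimum count of 50. With 1 library left out they ran from 0 to 1644 and from 0 to 1473. Without control replicate 3, DESeq2 called 1729 and 1634 and limma-voom 1708 and 1393. Of pathway genes, 6 and 1 were called by DESeq2, 5 and 2 with no filter, 0 to 14 and 0 to 21 with a library left out, and without control replicate 3 15 and 23 by DESeq2 and 14 and 21 by limma-voom. The cause was not tested.

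Summed counts in place of FPKM gave PREX1 shares of 6.71% in siRBM47 and 21.5% in control, since length is then ignored. Same-numbered libraries did not deviate together in every pair (correlations -0.0364, 0.127 and 0.116). No pairing by number was thus seen, but so few libraries cannot exclude one. With a replicate block, PREX1 was at -1.999 and MTSS1 at -1.60, both called, and 39 genes were called in all.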
